A study of Mus musculus with 8 samples.

Results

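The genes described here encode 3 angiopoietin-like proteins (Angptl4, Angptl6 and Angptl8), 3 lipases that act on plasma lipoproteins (Lpl, Lipc and Lipg) and Gpihbp1, which carries lipoprotein lipase to the capillary surface. They were taken by gene name from the FPKM tables of mouse liver (fragments per kilobase of transcript, scaled to the mapped fragments of a library), where they are 7 of 24662 features in the CMV table and 7 of 27261 in the αSMA table. All 7 were found once in each table. They were chosen with the hairpin contrasts of these tables in view, so their values in those contrasts are a description and carry no p-value here.

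The study aimed a short hairpin RNA (shThbs2) at Thbs2, the gene of the secreted matricellular protein thrombospondin-2, with adeno-associated virus serotype 6, and its title names hepatic stellate cells and liver fibrosis. The groups were AAV6-CMV-shThbs2 with its control AAV6-CMV-NC, and AAV6-αSMA-shThbs2 with its control AAV6-αSMA-NC, each with 2 libraries of poly(A)-selected liver RNA from mice. CMV names a broadly active viral promoter, and αSMA is smooth muscle actin, which activated stellate cells express. Strain, sex, age, time after injection and any injury model were not in the labels, and the controls' insert is described no further than NC. Nor do the library titles give the fed or fasted state or the time of day at collection. The CMV libraries (replicates 1 and 2) and the αSMA libraries (replicates 3 and 4) came from different sequencing providers and platforms, so vector and provider cannot be told apart. Each vector with its control is called an arm below.

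Lipoprotein lipase splits the triglyceride of chylomicrons and very low density lipoproteins at the capillary wall, where GPIHBP1 holds it. ANGPTL4 inactivates lipoprotein lipase and is induced by fasting and by the fatty acid sensor PPARα, while ANGPTL8 is induced by feeding and insulin in liver and fat and helps to restrain the enzyme in muscle and heart. Hepatic lipase is made by hepatocytes and acts on remnant lipoproteins and high density lipoproteins, endothelial lipase acts mainly on phospholipids of high density lipoproteins, and adult hepatocytes make little lipoprotein lipase of their own, with macrophages as one known hepatic source.

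The target of the hairpin, Thbs2, measured 0.695 and 0.614 FPKM in CMV shThbs2 livers, against 1.27 and 0.922 FPKM in CMV NC livers, and 0.85 and 1.14 FPKM in αSMA shThbs2 livers, against 1.37 and 1.47 FPKM in αSMA NC livers. Both shThbs2 values lay below both controls in each arm, and neither difference passed limma (adjusted p = 0.6 in the CMV arm without a filter on low values, where Thbs2 lay under it, and 0.269 in the αSMA arm). Libraries did not differ in the same way in the arms. The FPKM sums were 514641 and 503000 in CMV shThbs2 livers, against 504227 and 491931 in CMV NC livers, but 1253737 and 1225210 in αSMA shThbs2 livers, against 941530 and 924060 in αSMA NC livers. Mitochondrially encoded transcripts took 23.1% and 24.6% of all FPKM in αSMA shThbs2 livers, against 12.2% and 12.1% in αSMA NC livers, and between 13.3% and 15.8% in the 4 CMV libraries. Of 13012 αSMA features tested with limma, 36.1% passed an adjusted p of 0.05 (1729 higher, 2962 lower) with a median log2 change of −0.16, whereas of 10916 CMV features 0.0183% passed (2 higher, 0 lower, with 1113 under an unadjusted p of 0.05) with a median of 0.03. The αSMA calls numbered 53 without NC replicate 3, 46 without NC replicate 4 and 1111 without shThbs2 replicate 3, and the CMV calls 152 without NC replicate 1, 131 without NC replicate 2, 10 without shThbs2 replicate 1 and 18 without shThbs2 replicate 2. The share of αSMA calls that were higher was 36.9% as deposited, 13.5% after rescaling the libraries to the same FPKM sum (median change −0.51), 23.3% after rescaling over nuclear genes (−0.34) and 57.6% with median centring (0.05), so directions in that arm are given with those scalings. All log2 changes below are of FPKM + 1, shThbs2 minus NC.

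**Figure D1:**
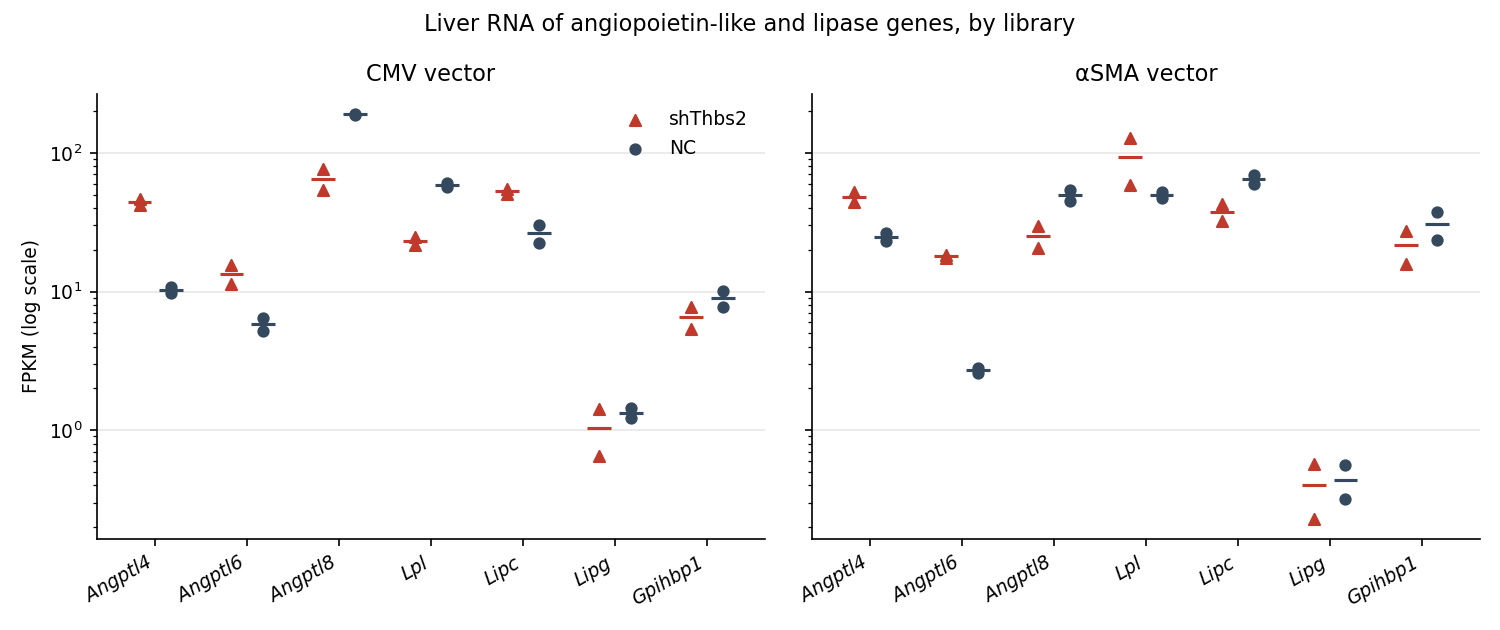
FPKM of each gene in every library on a log axis, with shThbs2 livers as triangles and NC livers as circles and the mean of each group as a bar, for the CMV vector (left) and the αSMA vector (right). Angptl4 and Angptl6 sat higher and Angptl8 lower in shThbs2 livers with both vectors, while Lpl and Lipc lay on opposite sides of their controls in the 2 panels.

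Angptl4, Angptl6 and Angptl8 had the same direction in both arms, and Lpl and Lipc had opposite directions. For Lpl the αSMA direction is that of the means only, since its interval there spans 0 (−0.15 to 1.72). With the CMV vector, Angptl4, Angptl6 and Lipc were higher and Angptl8 and Lpl lower in shThbs2 livers. With the αSMA vector, Angptl4, Angptl6 and Lpl were higher and Angptl8 and Lipc lower. All 7 genes passed the filter of a mean of 1 FPKM in the CMV arm and 6 of 7 in the αSMA arm, where Lipg lay under it. In the whole-table limma fit 1 of 7 genes passed in the CMV arm (Angptl4, against 0.0183% of all features) and 4 of 6 in the αSMA arm (Angptl4 and Angptl6 higher, Angptl8 and Lipc lower, against 36.1% of all features). In the CMV arm 6 of 7 genes had groups free of overlap (3 higher and 3 lower), against 42% of all features (24.5% higher and 17.5% lower). In the αSMA arm 5 of 6 did (3 higher and 2 lower), against 74.9% of all features (28.7% higher and 46.2% lower). Of the 7 genes, 4 passed in the CMV arm without NC replicate 1, 3 without NC replicate 2 and 2 without shThbs2 replicate 1, and in the αSMA arm 0 passed without NC replicate 3 or NC replicate 4 and 2 without shThbs2 replicate 3 or shThbs2 replicate 4. Nothing is read from these counts, or from a named gene passing or not passing here and below, since the genes were picked with the contrasts known.

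Angptl4 (ENSMUSG00000002289, chromosome 17, 33773750 to 33781830, minus strand, GRCm38), the fasting-induced inhibitor of lipoprotein lipase, measured 46.6 and 42.4 FPKM in CMV shThbs2 livers, against 9.70 and 10.8 FPKM in CMV NC livers. The means were 44.5 ± 2.97 and 10.3 ± 0.787 FPKM (SD, n = 2 each), a ratio of 4.34 and a log2 change of 2.01 (SE 0.14, 95% confidence interval 1.69 to 2.34). Both CMV shThbs2 libraries lay far above both controls, and 99.8% of all tested features had a smaller log2 change. With the αSMA vector it measured 52.4 and 44.3 FPKM in shThbs2 livers, against 26.5 and 23.3 FPKM in NC livers, with means of 48.3 ± 5.71 and 24.9 ± 2.24 FPKM (SD, n = 2 each), a ratio of 1.94 and a log2 change of 0.93 (SE 0.17, 95% confidence interval 0.51 to 1.35). Here too both shThbs2 libraries were above both controls. The αSMA change was 1.15 with median centring and 0.53 after rescaling to the same FPKM sum. It no longer passed limma without NC replicate 3 (1.02), NC replicate 4 (0.84) or shThbs2 replicate 3 (0.81), while the CMV call was lost without a filter on low values. With any 1 library left out the CMV change was 1.94 to 2.09.

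Angptl6 (ENSMUSG00000038742, chromosome 9, 20873808 to 20879727, minus strand) encodes a secreted angiopoietin-related growth factor made by hepatocytes. In the αSMA arm it measured 17.6 and 18.4 FPKM in shThbs2 livers, against 2.6 and 2.8 FPKM in NC livers, the greatest ratio among the 7 genes. The means were 18.0 ± 0.537 and 2.70 ± 0.141 FPKM (SD, n = 2 each), a ratio of 6.66 and a log2 change of 2.36 (SE 0.14, 95% confidence interval 2.00 to 2.71), which ranged from 2.02 after rescaling to the same FPKM sum to 2.58 with median centring among the scalings. With the CMV vector its level was 15.6 and 11.3 FPKM in shThbs2 livers, against 5.17 and 6.43 FPKM in NC livers, with means of 13.4 ± 3.02 and 5.80 ± 0.894 FPKM (SD, n = 2 each) and a log2 change of 1.08 (SE 0.19, 95% confidence interval 0.60 to 1.55). The shThbs2 libraries exceeded the controls in both arms. The αSMA call was lost without NC replicate 3 (2.32) or NC replicate 4 (2.40), at nearly the same change. The last exon shares 265 exonic bases, chr9:20873808-20874072, with the neighbouring gene A230050P20Rik on the opposite strand, and no source states that strand was used in counting. A230050P20Rik measured 91.9 and 72.2 FPKM in αSMA shThbs2 livers, against 43.3 and 35.4 FPKM in αSMA NC livers (log2 change 1.04, limma adjusted p = 0.0179), and 30.6 and 25.5 FPKM in CMV shThbs2 livers, against 37.9 and 30.4 FPKM in CMV NC livers (−0.27, adjusted p = 0.621). Its part in the Angptl6 values was not tested.

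Angptl8 (ENSMUSG00000047822, chromosome 9, 21835510 to 21837347, plus strand), the feeding-induced member, had the lowest log2 change of the 7 genes in both arms. With the CMV vector its level was 76.5 and 53.7 FPKM in shThbs2 livers, against 192.1 and 188.4 FPKM in NC livers, with means of 65.1 ± 16.1 and 190.3 ± 2.63 FPKM (SD, n = 2 each), a ratio of 0.342 and a log2 change of −1.55 (SE 0.18, 95% confidence interval −2.004 to −1.11). In the αSMA arm it measured 29.8 and 20.6 FPKM in shThbs2 livers, against 45.3 and 53.8 FPKM in NC livers, with means of 25.2 ± 6.50 and 49.5 ± 6.02 FPKM (SD, n = 2 each), a ratio of 0.509 and a log2 change of −0.97 (SE 0.22, 95% confidence interval −1.53 to −0.40). Both shThbs2 libraries were below both controls in each arm, so the order was the reverse of that of Angptl4. The αSMA change was −0.75 with median centring, where it did not pass limma. It also did not pass without NC replicate 3 (−1.09), NC replicate 4 (−0.84), shThbs2 replicate 3 (−1.22) or shThbs2 replicate 4 (−0.71). The CMV change was −1.54 without NC replicate 1, −1.57 without NC replicate 2, −1.81 without shThbs2 replicate 1 and −1.30 without shThbs2 replicate 2. Angptl8 lies within an intron of Dock6, chr9:21833642-21838750, on the opposite strand and shares no exonic base with it. Dock6 measured 14.7 and 11.1 FPKM in αSMA shThbs2 livers, against 4.8 and 5.12 FPKM in αSMA NC livers (log2 change 1.21, limma adjusted p = 0.0114), and 4.18 and 3.85 FPKM in CMV shThbs2 livers, against 5.64 and 5.07 FPKM in CMV NC livers (−0.34, adjusted p = 0.496).

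Angptl6 and Angptl8 lie 955783 bases apart on chromosome 9 and stood on opposite sides of their controls in both arms, so the 250 bases before each start are shown together, with those of Lipc from the same chromosome. The RefSeq table of build GRCm38.p6 held promoters for 3 of the 7 genes, and the stretches are chr9:20879711-20879960 (minus strand) for Angptl6, chr9:21835260-21835509 (plus strand) for Angptl8 and chr9:70952222-70952471 (minus strand) for Lipc, each read 5′ to 3′ along its gene.
Angptl6: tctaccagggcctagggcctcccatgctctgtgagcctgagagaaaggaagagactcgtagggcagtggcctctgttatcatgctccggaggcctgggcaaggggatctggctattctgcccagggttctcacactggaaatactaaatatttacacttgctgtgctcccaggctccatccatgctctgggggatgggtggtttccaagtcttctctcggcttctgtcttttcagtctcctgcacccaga
Angptl8: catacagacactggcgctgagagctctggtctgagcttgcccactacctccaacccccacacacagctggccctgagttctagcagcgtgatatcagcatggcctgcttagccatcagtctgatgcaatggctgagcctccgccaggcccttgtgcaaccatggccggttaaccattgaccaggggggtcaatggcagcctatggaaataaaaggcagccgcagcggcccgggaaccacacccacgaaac
Lipc: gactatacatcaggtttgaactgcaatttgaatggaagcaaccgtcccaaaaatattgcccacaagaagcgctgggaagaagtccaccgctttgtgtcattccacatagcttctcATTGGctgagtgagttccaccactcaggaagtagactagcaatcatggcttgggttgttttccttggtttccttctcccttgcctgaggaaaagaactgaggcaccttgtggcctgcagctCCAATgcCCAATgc
Capitals mark motif matches on either strand. The motifs searched were the TATA box TATAAA, the CCAAT box CCAAT, the E-box CACGTG that ChREBP-type factors bind, the nuclear receptor half-site AGGTCA and the half-site directly repeated with 1 or with 4 bases of any kind between the copies. The half-site is part of both repeats, and no other motif contains another. Lipc held 3 CCAAT matches, at bases −135 to −131 on the minus strand and −14 to −10 and −7 to −3 on the plus strand counted from the start, and neither Angptl6 nor Angptl8 held any of these letters. Of 32851 stretches of the same length in the table, 33.8% held CCAAT, 12.4% TATAAA, 6.02% CACGTG, 14% AGGTCA, 0.0335% the repeat with 1 spacer base and 0.0152% that with 4.

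Lpl (ENSMUSG00000015568, chromosome 8, 68880491 to 68907448, plus strand), lipoprotein lipase, had mean changes of opposite sign in the arms. The interval of its αSMA change spans 0. With the CMV vector its level was 24.7 and 21.6 FPKM in shThbs2 livers, against 60.5 and 56.9 FPKM in NC livers, with means of 23.1 ± 2.18 and 58.7 ± 2.61 FPKM (SD, n = 2 each), a ratio of 0.394 and a log2 change of −1.31 (SE 0.13, 95% confidence interval −1.64 to −0.98). Replicates agreed closely there, and only 0.266% of all tested features had a lower log2 change. With the αSMA vector it measured 58.6 and 127.5 FPKM in shThbs2 livers, against 52.2 and 47.5 FPKM in NC livers, with means of 93.1 ± 48.7 and 49.9 ± 3.39 FPKM (SD, n = 2 each) and a log2 change of 0.78 (SE 0.37, 95% confidence interval −0.15 to 1.72). One αSMA shThbs2 library lay just above the controls and the other far above them. The αSMA change was 1.34 without shThbs2 replicate 3 and 0.23 without shThbs2 replicate 4, so most of it came with shThbs2 replicate 4. After rescaling to the same FPKM sum it was 0.38. The CMV change was −1.27 without NC replicate 1 and −1.35 without NC replicate 2.

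Lipc (ENSMUSG00000032207, chromosome 9, 70798128 to 70952226, minus strand), hepatic lipase, mirrored Lpl. With the CMV vector its level was 50.7 and 55.3 FPKM in shThbs2 livers, against 30.3 and 22.5 FPKM in NC livers, with means of 53.0 ± 3.27 and 26.4 ± 5.54 FPKM (SD, n = 2 each), a ratio of 2.01 and a log2 change of 0.99 (SE 0.17, 95% confidence interval 0.57 to 1.41). In the αSMA arm it measured 43.0 and 32.1 FPKM in shThbs2 livers, against 59.3 and 69.8 FPKM in NC livers, with means of 37.5 ± 7.70 and 64.6 ± 7.40 FPKM (SD, n = 2 each), a ratio of 0.582 and a log2 change of −0.78 (SE 0.20, 95% confidence interval −1.29 to −0.26). Both arms kept the groups apart, on opposite sides. The αSMA change was −0.56 with median centring and −1.18 after rescaling to the same FPKM sum. It did not pass limma with median centring, or without NC replicate 3 (−0.89), NC replicate 4 (−0.66), shThbs2 replicate 3 (−0.98) or shThbs2 replicate 4 (−0.57). The CMV change was 1.198 without NC replicate 1 and 0.78 without NC replicate 2.

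Lipg (ENSMUSG00000053846), endothelial lipase, was the lowest of the 7 in every group. It measured 0.653 and 1.42 FPKM in CMV shThbs2 livers, against 1.23 and 1.43 FPKM in CMV NC livers (log2 change −0.22, SE 0.22), and 0.57 and 0.23 FPKM in αSMA shThbs2 livers, against 0.56 and 0.32 FPKM in αSMA NC livers (−0.05, SE 0.17, without a filter). The groups overlapped in both arms, and without CMV shThbs2 replicate 1 the CMV change was 0.06. The added 1 FPKM shrinks changes at these levels.

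Gpihbp1 (ENSMUSG00000022579, chromosome 15, 75596628 to 75599481, plus strand), the endothelial carrier of lipoprotein lipase, measured 5.40 and 7.756 FPKM in CMV shThbs2 livers, against 7.758 and 10.1 FPKM in CMV NC livers (log2 change −0.40, SE 0.21, 95% confidence interval −0.91 to 0.11). It measured 15.8 and 27.5 FPKM in αSMA shThbs2 livers, against 37.8 and 23.7 FPKM in αSMA NC livers (−0.50, SE 0.34, 95% confidence interval −1.35 to 0.35). The CMV groups lay next to each other without overlap, the αSMA groups overlapped and both intervals span 0. The CMV change was −0.57 without NC replicate 1, −0.23 without NC replicate 2, −0.17 without shThbs2 replicate 1 and −0.62 without shThbs2 replicate 2, and the αSMA change was −0.17 without NC replicate 3, −0.82 without NC replicate 4, −0.12 without shThbs2 replicate 3 and −0.88 without shThbs2 replicate 4. The αSMA change was −0.89 after rescaling to the same FPKM sum and −0.28 with median centring.

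**Figure D2:**
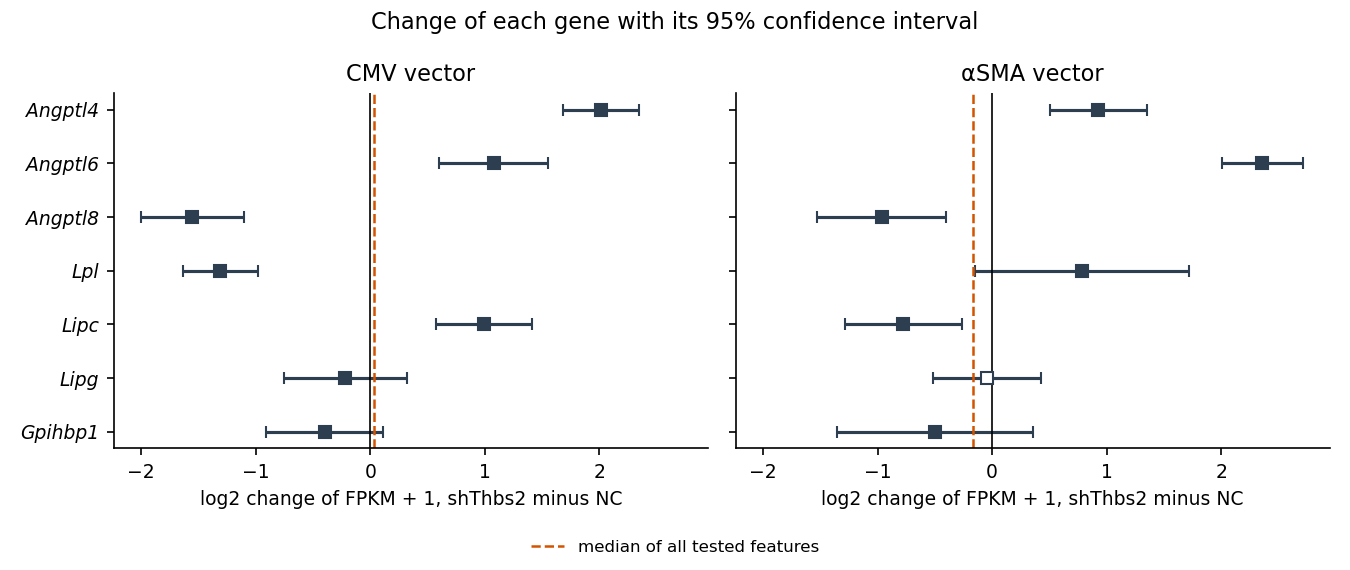
Log2 change of FPKM + 1, shThbs2 minus NC, of each gene (squares; open for Lipg in the αSMA arm, which lay under the filter) with its 95% confidence interval from limma, for the CMV vector (left) and the αSMA vector (right). The dashed line is the median of all tested features, 0.03 and −0.16, and the intervals of Lipg and Gpihbp1 span 0 with either vector.

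The difference of the effects between arms was fitted in 1 limma model of the 8 libraries over 10245 genes, as the αSMA effect minus the CMV effect. It was 2.095 for Lpl (SE 0.42, 95% confidence interval 1.14 to 3.05), −1.77 for Lipc (SE 0.28, −2.39 to −1.14), 1.28 for Angptl6 (SE 0.25, 0.72 to 1.84) and −1.09 for Angptl4 (SE 0.21, −1.56 to −0.61). Angptl8 (0.59, SE 0.31, −0.11 to 1.29) and Gpihbp1 (−0.10, SE 0.43, −1.07 to 0.87) had intervals that span 0, and the Gpihbp1 difference was 0.15 with median centring. The first 4 of the 6 genes tested passed the threshold, against 25.1% of all genes (2 positive and 2 negative, against 7.71% and 17.4%), and nothing is read from that count either. For Angptl4 and Angptl6 the difference was one of size, with Angptl4 changing more in the CMV arm and Angptl6 more in the αSMA arm. Lpl did not pass without CMV shThbs2 replicate 2 (2.00) or αSMA NC replicate 4 (2.03).

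A ratio of 2 genes within a library is free of the scaling of that library. The ratio of Angptl4 to Angptl8 was 0.609 and 0.790 in CMV shThbs2 livers, against 0.0505 and 0.0574 in CMV NC livers, and 1.76 and 2.15 in αSMA shThbs2 livers, against 0.585 and 0.433 in αSMA NC livers. It was higher in every shThbs2 library of an arm than in either control, by 3.69 in log2 in the CMV arm and 1.95 in the αSMA arm. The ratio of Lipc to Lpl was 2.06 and 2.56 in CMV shThbs2 livers, against 0.501 and 0.396 in CMV NC livers, but 0.733 and 0.252 in αSMA shThbs2 livers, against 1.14 and 1.47 in αSMA NC livers. The ratio of Angptl4 to Lpl, the inhibitor to its enzyme, was 1.89 and 1.97 in CMV shThbs2 livers, against 0.160 and 0.190 in CMV NC livers, and 0.893 and 0.347 in αSMA shThbs2 livers, against 0.507 and 0.491 in αSMA NC livers. The αSMA groups overlap for this ratio, with 1 shThbs2 library on each side of the controls. The ratio of Lpl to its carrier Gpihbp1 was 4.56 and 2.78 in CMV shThbs2 livers, against 7.80 and 5.62 in CMV NC livers, and 3.71 and 4.63 in αSMA shThbs2 livers, against 1.38 and 2.00 in αSMA NC livers.

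**Figure D3:**
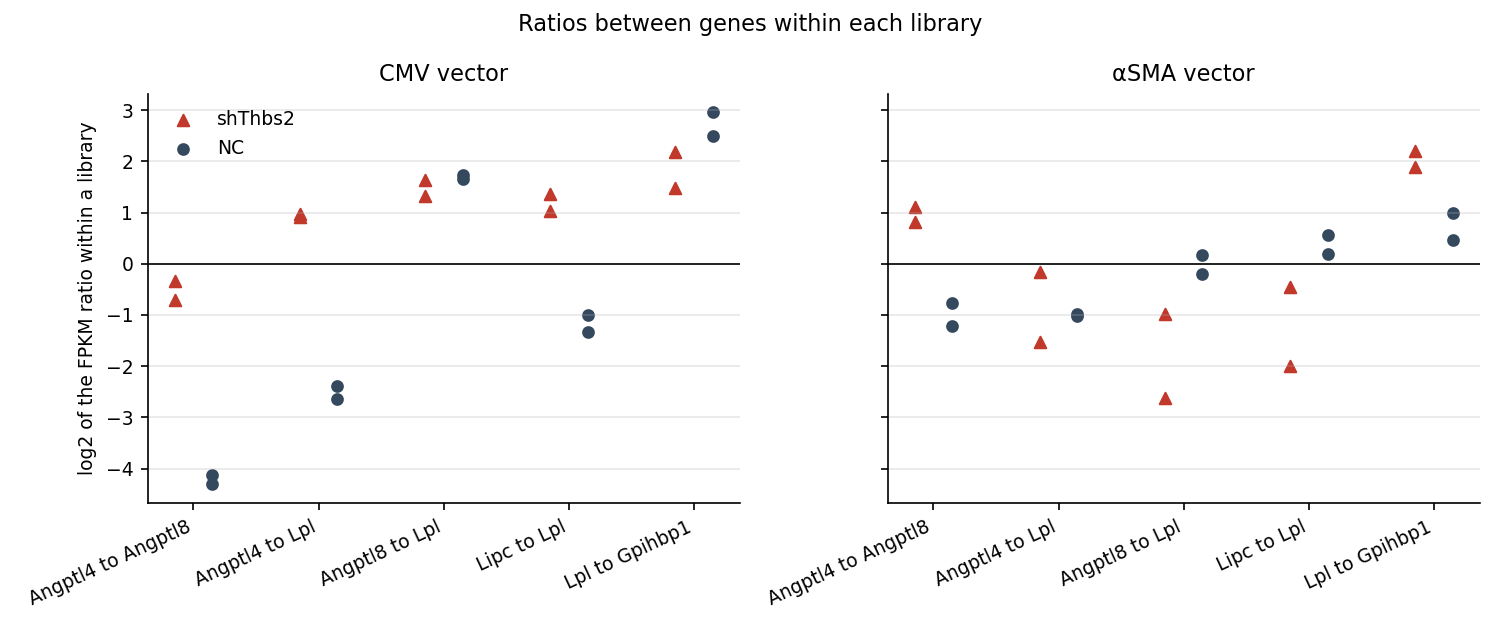
Log2 of the FPKM ratio of 2 genes within each library, with shThbs2 livers as triangles and NC livers as circles, for the CMV vector (left) and the αSMA vector (right). The ratio of Angptl4 to Angptl8 was higher in shThbs2 livers in both panels, and that of Lipc to Lpl was higher in the left panel and lower in the right one.

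The order of the levels also differed between groups. In CMV shThbs2 livers the order of the mean FPKM was Angptl8, Lipc, Angptl4, Lpl, Angptl6, Gpihbp1 and Lipg, where only the neighbours Angptl8 and Lipc overlapped. In CMV NC livers it was Angptl8, Lpl, Lipc, Angptl4, Gpihbp1, Angptl6 and Lipg, with only Angptl4 and Gpihbp1 overlapping. In αSMA shThbs2 livers Lpl led, followed by Angptl4, Lipc, Angptl8, Gpihbp1, Angptl6 and Lipg, and Angptl8 overlapped Gpihbp1, which overlapped Angptl6. In αSMA NC livers Lipc led, followed by Lpl, Angptl8, Gpihbp1, Angptl4, Angptl6 and Lipg, and Lpl overlapped Angptl8 and Gpihbp1 overlapped Angptl4. Levels are not compared between the tables, which were normalised separately.

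Genes with the most similar course were sought by the Pearson correlation of log2(FPKM + 1), centred within each arm, over the 8 libraries, among 5995 named genes with a mean of at least 5 FPKM in both arms. Those nearest to Angptl4 were Tubgcp4 (r = 0.972), Adrm1 (0.966) and Ddx41 (0.964), and to Angptl6 they were Rexo2 (0.997), Mocs2 (0.993) and Clpp (0.992). Those nearest to Angptl8 were Mug2 (0.939), Plxnb1 (0.929) and Palld (0.924). Those nearest to Lpl were Nr2f2 (0.953), Ccl9 (0.949) and Adam10 (0.909), and to Lipc they were Cdc42ep4 (0.978), Gtf3a (0.971) and Lims2 (0.970). Those nearest to Gpihbp1 were Dlst (0.952), Oat (0.949) and Tor1b (0.934). These are the highest of many coefficients over few libraries that share the group difference and the scaling, and are a description only.

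Cell type markers were followed beside these genes, because in whole liver fewer cells of a type and less RNA per cell cannot be told apart. All 10 hepatocyte markers were measured above the filter in both arms, with a summed level of 48025 to 52265 FPKM in CMV shThbs2 livers, against 66373 to 66699 FPKM in CMV NC livers, and 47272 to 59832 FPKM in αSMA shThbs2 livers, against 36933 to 50786 FPKM in αSMA NC livers. A single marker reached 50033 FPKM in the CMV arm and 29516.5 FPKM in the αSMA arm, so 1 gene weighs heavily in these sums. The median log2 change of the 10 was −0.11 in the CMV arm and −0.16 in the αSMA arm, beside 0.03 and −0.16 for all features. Marker sums here and below are as deposited, and the FPKM sums were 1253737 and 1225210 in αSMA shThbs2 livers, against 941530 and 924060 in αSMA NC livers. In the CMV arm 0 of 10 passed limma (Tat 0.68 and Alb −0.53, adjusted p = 0.199 and 0.23), and in the αSMA arm Apoa2 rose (1.46, adjusted p = 0.0239) while Fgb (−1.43, 0.013) and Serpina1a (−0.61, 0.0397) fell. The 16 macrophage markers, of cells known to make lipoprotein lipase, summed to 509 to 513 FPKM in CMV shThbs2 livers, against 472 to 721 FPKM in CMV NC livers, with 0 of 16 past limma (Spp1 −0.75 and Ccr2 −0.58, adjusted p = 0.333 and 0.354). They summed to 745 to 851 FPKM in αSMA shThbs2 livers, against 1012 to 1116 FPKM in αSMA NC livers, where 1 of 16 rose and 4 fell. Of all αSMA features 13.3% rose and 22.8% fell, and the median log2 change was −0.53 for the macrophage markers, beside −0.16 for all features. Nothing is read from the marker counts. These macrophage calls were as follows. Cd68 fell by 1.69 (limma adjusted p = 0.00644), Ccr2 by 1.14 (0.0111), Cd9 by 1.07 (0.017) and the general macrophage marker Adgre1 by 0.95 (0.0181) on the log2 scale, and the one that rose was the Kupffer cell lectin Clec4f. The part of these cells in the Lpl values was not tested.

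The 12 endothelial markers, of the cells that carry GPIHBP1, summed to 83.8 to 88.1 FPKM in CMV shThbs2 livers, against 90.3 to 94.9 FPKM in CMV NC livers, with 0 of 11 tested past limma (Cd300lg −0.34 and Pecam1 −0.39, adjusted p = 0.482 and 0.501). They summed to 93.6 to 108.2 FPKM in αSMA shThbs2 livers, against 108.5 to 142.4 FPKM in αSMA NC livers, where 0 rose and 2 of 12 fell (Plvap −0.66 and Pecam1 −0.63, adjusted p = 0.0376 and 0.0491). Their median αSMA log2 change was −0.25, beside −0.16 for all features, of which 13.3% rose and 22.8% fell. The stellate cell markers summed to 128 to 141 FPKM in CMV shThbs2 livers, against 145 to 156 FPKM in CMV NC livers, with 0 of 12 past limma (Acta2 −0.91 and Reln −0.87, adjusted p = 0.293 and 0.344), and to 339 to 473 FPKM in αSMA shThbs2 livers, against 338 to 362 FPKM in αSMA NC livers, where 0 of 11 rose and 3 fell (Acta2 −0.83, Pdgfrb −0.56 and Hgf −0.69, adjusted p = 0.017, 0.0394 and 0.044). The αSMA sums are not corrected for the higher FPKM sums of the shThbs2 libraries. The median αSMA log2 change of the stellate markers was −0.41, beside −0.16 for all features, of which 13.3% rose and 22.8% fell. With median centring Plvap, Pecam1, Pdgfrb, Hgf and the hepatocyte marker Serpina1a did not pass. Fat and muscle also make lipoprotein lipase. In the CMV table the adipocyte genes Adipoq, Plin1, Lep, Retn and Cfd were listed at 0 in all 4 libraries, and 10 striated muscle markers summed to at most 0.29 FPKM. In the αSMA table the 9 muscle markers present summed to at most 0.27 FPKM. Of 3 adipocyte markers tested in each arm 0 passed in the CMV arm (Fabp4 −0.38 and Cidec 0.27, adjusted p = 0.568 and 0.922), and the 9 markers summed to 8.96 to 12.5 FPKM in CMV shThbs2 livers, against 12.5 to 14.2 FPKM in CMV NC livers. The 7 present in the αSMA table summed to 52.4 to 71.6 FPKM in shThbs2 livers, against 94.5 to 106 FPKM in NC livers, and Fabp4, which macrophages and endothelium also express, fell in the αSMA arm (−1.29, adjusted p = 0.0104).

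The genes around the lipases were read from lists written with earlier results of these tables known, and 0 of their members passed limma in the CMV arm (over all lists, cell type markers included, 9 higher and 7 lower without NC replicate 1, 5 and 4 without NC replicate 2, and 1 and 1 without shThbs2 replicate 2). From each list of lipid genes, the 2 with the smallest p are given next, and none of them passed. Srebf1, the insulin-responsive regulator of lipogenesis, averaged 31.0 FPKM in shThbs2 livers and 71.1 FPKM in NC livers (log2 change −1.18, limma adjusted p = 0.137), and Pnpla3, a lipogenic lipase gene that stands in 2 lists, 0.641 FPKM in shThbs2 livers and 2.25 FPKM in NC livers (−0.99, 0.158). Pnpla3 passed the filter of 1 FPKM only through its NC libraries. The PPARα targets Acaa1b, a peroxisomal thiolase, and Fgf21, a fasting hormone, averaged 356 FPKM in shThbs2 livers and 177 FPKM in NC livers (1.02, 0.158) and 33.2 FPKM in shThbs2 livers and 9.88 FPKM in NC livers (1.53, 0.296). Among other lipases Ces3a stood at 0.78 (adjusted p = 0.373), among lipase folding and cleavage genes Sdc1 at −0.55 (0.343) and Pcsk5 at −0.40 (0.514), and among uptake genes the fatty acid transporter Slc27a2 at 0.55 (0.293) and Cd36 at −0.63 (0.397). Among apolipoprotein cofactors Apoa4 stood at −1.06 (0.452) and Apoa5, which aids lipoprotein lipase, at 0.34 (0.491), and among the remaining angiopoietin-related genes Tie1 at −0.22 (0.68) and Angptl2 at 0.16 (0.773). The median log2 change was 0.16 for 23 PPARα genes, −0.09 for 20 lipogenic genes, −0.15 for 8 apolipoproteins, −0.05 for 12 uptake genes, 0.01 for 11 other lipases and −0.12 for 3 angiopoietin-related genes, beside 0.03 for all features. It was close to 0 for the 11 folding and cleavage genes.

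With the αSMA vector, 6 of 19 lipogenic genes tested rose and 0 fell, with a median of 0.64, where 13.3% of all features rose and 22.8% fell. Nothing is read from the list counts here or below, since the lists were written with earlier results known. Thrsp, which supports fatty acid synthesis, measured 457 and 67.0 FPKM in shThbs2 livers, against 4.86 and 7.51 FPKM in NC livers (log2 change 4.64, limma adjusted p = 0.0175). Its 2 shThbs2 libraries lay far apart, and Thrsp did not pass with robust empirical Bayes. Mlxipl, which encodes the carbohydrate sensor ChREBP, measured 176.8 and 74.5 FPKM in shThbs2 livers, against 28.5 and 23.0 FPKM in NC livers (2.12, 0.0191), and Acaca, acetyl-CoA carboxylase, 44.2 and 35.5 FPKM in shThbs2 livers, against 13.7 and 12.4 FPKM in NC livers (1.53, 0.00735). Irs2, an insulin receptor substrate, rose by 1.24 (0.0102). Of 13 uptake genes 0 rose and 5 fell, with a median of −0.59. Scarb1, the receptor of high density lipoproteins, measured 18.3 and 18.7 FPKM in shThbs2 livers, against 47.5 and 54.1 FPKM in NC livers (−1.41, 0.00702), and the fatty acid transporter Slc27a4 (−1.21, 0.0123) and the sorting receptor Sort1 (−1.14, 0.0189) fell too. Across all lists 15 genes rose and 41 fell, with 19 and 28 under median centring and 10 and 77 after rescaling to the same FPKM sum. Of these 56 calls 1 held without NC replicate 3 (Angpt2, with adjusted p from 0.0477 to 0.269 over the 56), 0 without NC replicate 4 (0.0545 to 0.274), 13 without shThbs2 replicate 3 and 42 without shThbs2 replicate 4, each with its direction kept. This limit holds for every αSMA list call given here, cell type markers included.

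Of 24 PPARα genes in the αSMA arm 2 rose and 6 fell, with a median of 0.05, beside 13.3% of all features that rose and 22.8% that fell. Vnn1, a pantetheinase, rose by 0.94 in log2 (limma adjusted p = 0.0163). Ppargc1a, a coactivator, fell by 1.51 (0.00881) and Hadha, of mitochondrial β-oxidation, by 0.90 (0.0143), while the mitochondrial share of the libraries was higher. Among lipase folding and cleavage genes Lmf1, the chaperone that lipoprotein, hepatic and endothelial lipase need to fold, measured 26.8 and 21.6 FPKM in shThbs2 livers, against 14.1 and 13.8 FPKM in NC livers (0.74, 0.0253). Lmf1 did not pass after rescaling to the same FPKM sum. The syndecan Sdc1, a remnant receptor, fell by 1.00 (0.0134), and the proprotein convertases Furin by 0.91 (0.0139) and Pcsk6, known to cleave endothelial and lipoprotein lipase in cell culture, by 0.72 (0.0217), so 1 of 11 rose and 3 fell, with a median of −0.24. Of 8 apolipoprotein cofactors 2 rose and 1 fell, with a median of 0.06. Apoc3, which restrains lipoprotein lipase, rose by 1.10 (0.0488) and Apoc4 by 1.12 (0.017), and Apoa5 fell by 0.62 (0.038). Apoc3 did not pass after either rescaling of the FPKM sum, and Apoa5 did not pass with median centring. Of 11 other lipases and lipid droplet genes 1 rose and 3 fell, with a median of −0.59. The monoglyceride lipase Mgll rose by 1.00 (0.0407), and the carboxylesterase Ces1d fell by 1.30 (0.0163), the lysosomal lipase Lipa by 0.63 (0.0303) and the droplet protein Plin2 by 1.54 (0.043). Mgll did not pass after rescaling to the same FPKM sum, and Lipa and Plin2 did not pass with median centring. Among the 4 angiopoietin-related genes tested, with a median of −0.14, 0 rose and 1 fell. This was Angpt2, a vascular ligand, at 0.3 and 0.26 FPKM in shThbs2 livers, against 6.62 and 9.85 FPKM in NC livers (−2.83, 0.00518). Angpt2 passed the filter of 1 FPKM only through its NC libraries, and in the CMV arm it lay under that filter.

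**Figure D4:**
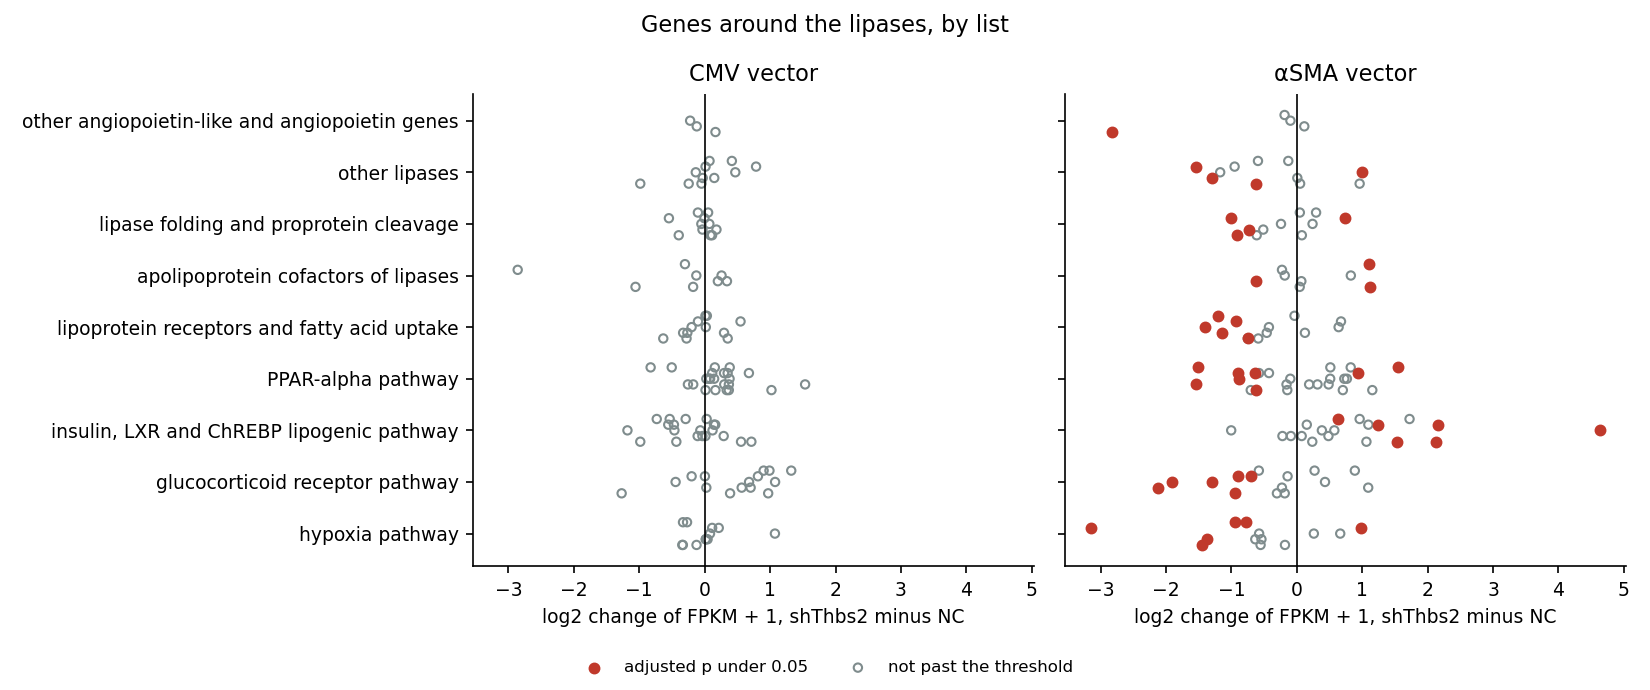
Log2 change of FPKM + 1, shThbs2 minus NC, of every tested gene of 9 lists, for the CMV vector (left) and the αSMA vector (right), with filled points for genes past a limma adjusted p of 0.05. No filled point stands on the left, and on the right the lipogenic list reaches 4.64 (Thrsp) and its filled points all lie above 0.

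**Figure D5:**
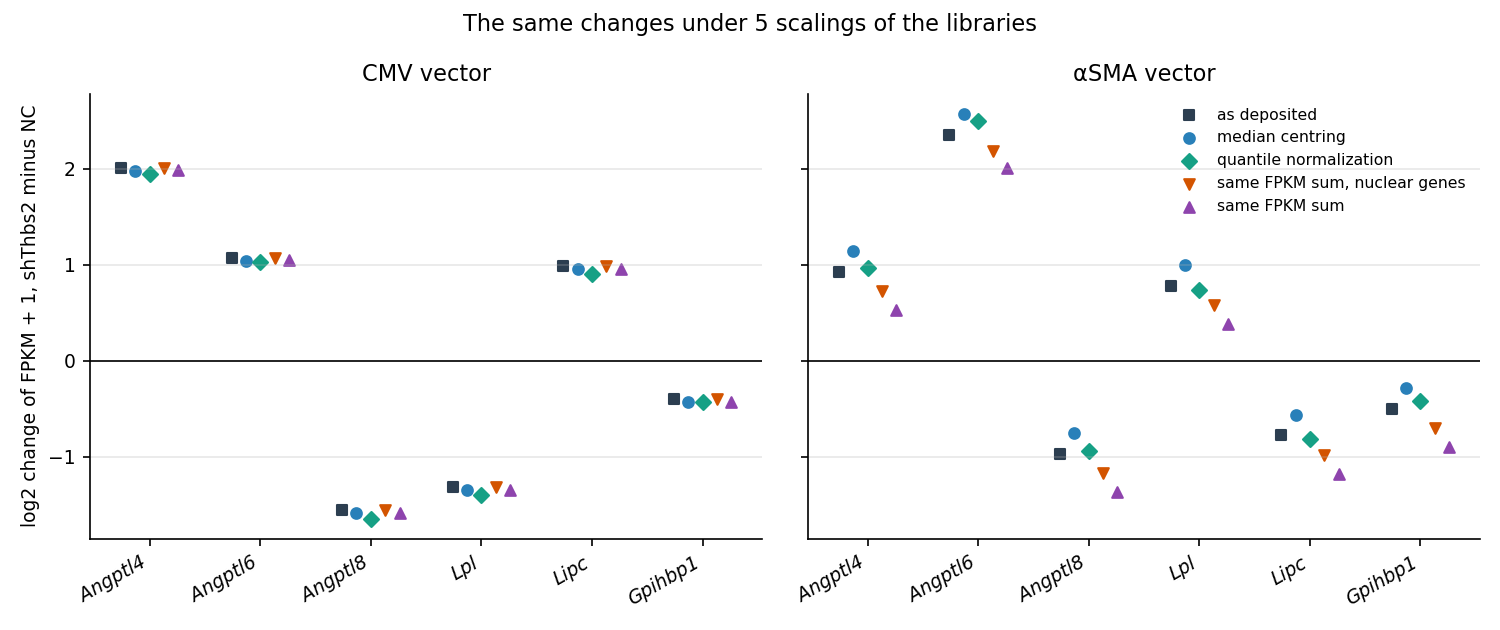
Log2 change of FPKM + 1, shThbs2 minus NC, of the 6 genes tested in both arms under 5 scalings of the libraries (symbols), for the CMV vector (left) and the αSMA vector (right). Each gene kept its sign under every scaling, and the αSMA values of Angptl4 spread from 0.53 to 1.15.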

How the data were processed

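The submitters' processing notes name build GRCm38 and the tools Bowtie2 2.3.5, HISAT2 2.1.0, Cufflinks and HISAT. No source used here says which tool made which table or whether strand was used. The authors deposited FPKM values per gene, 1 table per arm, each normalised alone. The values hold no counts. Low values showed no common step between the CMV controls (at most 1.23% of 1304 features shared a ratio), and the αSMA table is rounded to 2 decimals, so depth could not be recovered and no counting interval is given.

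The test was limma 3.58.1 under R 4.3.3 on log2(FPKM + 1) (trend, two-sided, 2 residual degrees of freedom per arm) over features averaging 1 FPKM or more in the 4 libraries, with Benjamini-Hochberg adjustment over all of them and a threshold of 0.05. The script was tested on simulated data. Libraries were grouped by title and taken as 1 mouse each. If they were not, p-values measure only the spread between libraries. The difference between arms used 1 model with a mean per group. The genes and lists were chosen with earlier results of these data known. From each list at most 4 passing genes with the smallest p per arm are named, or 2 that did not pass, and some genes of these lists are not reported here. Positions are from GENCODE M21 (GRCm38), and promoters from RefSeq (GRCm38.p6). Alternatives tried were no filter (features at 0 in all 4 libraries stay out), a pseudocount of 0.1, a mean of at least 5 FPKM, 4 other scalings, robust empirical Bayes, a replicate block and each library left out.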

Additional observations from a re-analysis of the deposited data

Results flagged for a closer look

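The effect of the hairpin differed between the arms past the threshold of the joint model for 4 of the 6 genes tested in it. The genes were chosen with these contrasts known, so the values are a description, and nothing is read from that count beside the 25.1% of all genes that passed. As the αSMA effect minus the CMV effect in log2, the difference was 2.095 for Lpl and −1.77 for Lipc, whose mean changes had opposite signs in the arms, and 1.28 for Angptl6 and −1.09 for Angptl4, which were higher in shThbs2 livers of both arms. The interval of the αSMA change of Lpl spans 0 (−0.15 to 1.72), and that change was 0.23 without αSMA shThbs2 replicate 4. Vector, provider and platform cannot be told apart in this difference.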

How the results depend on the processing

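Every one of the 6 genes tested in both arms kept its sign under the 13 alternatives of each arm. Lipg changed sign in the CMV arm without shThbs2 replicate 1 (0.06) and had no alternative in the αSMA arm, where it was under the filter. Without a filter on low values limma called 0 genes in the CMV arm (1533 under an unadjusted p of 0.05), 0 of the 7 genes there, 1843 genes in the αSMA arm and 2 of the 7 there, with 3 list genes higher and 15 lower. Median centring left 2 of the 7 in the αSMA arm. Rescaling to the same FPKM sum gave 77 lower list genes there and 4675 genes that differed between arms, a mean of at least 5 FPKM gave 1659 such genes, and rescaling over nuclear genes gave 5 CMV genes. The numbers pair no animals by the labels, and same-numbered libraries deviated with r = 0.04 (CMV) and 0.0013 (αSMA) across genes. With the replicate block limma called 17 CMV genes, 4317 αSMA genes and 2224 between arms, with 1, 3 and 4 of the 7, and Lipc was the αSMA call lost. Leaving out 1 library gave 10 to 152 CMV genes with 1 to 4 of the 7, 0 to 9 list genes higher and 0 to 7 lower, 46 to 4137 αSMA genes with 0 to 2 of the 7, 0 to 18 list genes higher and 0 to 39 lower, and 745 to 3183 genes between arms with 3 to 4 of the 7. The lone library of a group was then taken to vary like the other group. The cause of these shifts was not tested. With 2 libraries a group and unknown depth, the intervals of Lipg and Gpihbp1 in both arms and of Lpl in the αSMA arm span 0.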

Other observations

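Hypoxia and glucocorticoid genes, which include known regulators and co-targets of Angptl4, were followed in the same way. Of 13 hypoxia genes tested in the αSMA arm 1 rose and 5 fell past limma, with a median log2 change of −0.58, beside −0.16 for all features, of which 13.3% rose and 22.8% fell. Ndrg1, a hypoxia marker, measured 7.6 and 15.98 FPKM in shThbs2 livers, against 92.1 and 122.5 FPKM in NC livers (−3.15, limma adjusted p = 0.00742), and Epas1, which encodes HIF-2α, fell by 1.37 (0.00799), Egln1 by 0.95 (0.017) and Pfkfb3 by 1.45 (0.0203), while the stress gene Ddit4 rose by 0.99 (0.0265) and did not pass after rescaling to the same FPKM sum. Of 15 glucocorticoid genes there 0 rose and 6 fell, with a median of −0.30. Among them Per1 fell by 0.94 (0.0111), Fkbp5 by 0.91 (0.0159), Mt1 by 2.12 (0.0139) and Dusp1 by 1.30 (0.0189), the last 2 also answering to metals and stress. These calls were lost without αSMA NC replicate 3 or NC replicate 4.

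In the CMV arm 0 of 12 hypoxia genes (median 0.02) and 0 of 15 glucocorticoid genes (median 0.68, beside 0.03 for all features) passed. Ddit4 stood at 1.07 (adjusted p = 0.23) and Epas1 at −0.33 (0.466), and Cebpb at 0.97 (0.137) and the acute phase gene Lcn2 at −1.27 (0.0947).

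Apoc2, the cofactor that lipoprotein lipase requires, was listed at 7.31 and 186 FPKM in CMV shThbs2 livers, against 253 and 321 FPKM in CMV NC livers, a gene singled out after its values were seen. One CMV shThbs2 library stood far below the other 3. The αSMA libraries, normalised separately and not compared in level with these, lay between 327 and 604 FPKM.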
